A study of Arabidopsis thaliana with 18 samples.

Results

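Transcript levels of 6 genes that encode brassinosteroid-inactivating enzymes were followed through root tips of Arabidopsis thaliana given brassinosteroid, auxin or both, and through mutants of brassinosteroid signaling and synthesis. The genes were taken by locus from 33602 loci listed in each count file: BAS1 (AT2G26710), SOB7 (AT1G17060), BEN1 (AT2G45400), BAT1 (AT4G31910), UGT73C5 (AT2G36800) and UGT73C6 (AT2G36790). The rule that chose them used known function and no measured value, but it was set with earlier results of these data known.

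Brassinosteroids are steroid hormones that bind the receptor kinase BRI1 at the cell surface and act through the transcription factors BZR1 and BES1. A cell sets its level of active hormone by synthesis, through enzymes such as DWF4 and CPD, and by inactivation, in which the hormone is hydroxylated, reduced, acylated or glucosylated. In roots the hormone acts on cell elongation and on the meristem, and its effects there are balanced against those of auxin.

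The 18 libraries formed 9 groups of 2, all in the Col-0 background and all from the tip section of primary roots of 7-day-old seedlings kept under continuous light. At 101 bp, Col-0 was given the natural auxin IAA at 5 µM together with 100 nM brassinolide (BL, the most active brassinosteroid), IAA alone, BL alone or a mock solution for 4 h, and untreated bri1-116 bzr1-1D and untreated bri1-116 were sequenced beside them. The bri1-116 mutant lacks a working receptor, and bzr1-1D is a dominant form of BZR1 that is more stable. At 36 bp, dwf4 given 100 nM BL for 4 h, untreated dwf4, which is blocked in brassinosteroid synthesis, and untreated wild type (WT) were sequenced. The bri1-116 and bri1-116 bzr1-1D libraries were untreated while their Col-0 controls were mock-treated, so genotype and mock handling cannot be told apart there. No mock group went with BL-treated dwf4, so BL and handling cannot be told apart in its contrasts. The labels name no dwf4 allele and leave unsaid whether replicate libraries are separate cultures, so p-values measure the spread between these libraries, which may be technical.

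Total gene counts were between 11225390 and 36431707 in the 101 bp libraries and between 11764200 and 15647439 in the 36 bp ones. Levels are in CPM, counts scaled by the TMM-adjusted library size of each read-length set. A count of 0 allows up to 0.0837 to 0.270 and 0.195 to 0.251 CPM, the level of 3 counts, for counting error only. Transcripts of the mutated genes were present in the mutants: BRI1 had 142 and 135 CPM in bri1-116, 103 and 112 CPM in bri1-116 bzr1-1D and 114 and 129 CPM in mock Col-0, and DWF4 had 47.6 and 48.5 CPM in dwf4 and 49.8 and 51.9 CPM in WT. These levels do not check the labels, since a mutant transcript can still be made. The 10 root markers examined were above 0 in every library, and their summed level was 362 to 395 CPM with IAA and BL, 363 to 386 CPM with IAA, 489 to 540 CPM with BL, 401 to 428 CPM in bri1-116 bzr1-1D, 398 to 400 CPM in bri1-116 and 496 to 527 CPM in mock Col-0. At 36 bp the sum was 349 to 355 CPM in BL-treated dwf4, 338 to 340 CPM in dwf4 and 366 to 368 CPM in WT. The 4 shoot markers together stayed at 25.5 CPM or less in every library, and 2 of the 4 were at 0 in a library of BL-treated Col-0, BL-treated dwf4 and WT. Their sum was 24.4 to 25.5 CPM in bri1-116 bzr1-1D, 8.31 to 11.8 CPM in bri1-116 and 4.30 to 4.69 CPM in mock Col-0. It was 1.87 to 4.82 CPM with IAA and BL, 1.26 to 2.40 CPM with IAA and 3.29 to 5.46 CPM with BL. In the dwf4 experiment it was 9.75 to 10.8 CPM in BL-treated dwf4, 7.11 to 7.36 CPM in dwf4 and 1.82 to 6.17 CPM in WT. Because whole tip sections were sequenced, fewer cells of a type and less RNA per cell cannot be told apart.

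The genes lie apart from each other except for the UGT73C pair. In the TAIR10.1 assembly with RefSeq annotation, BAS1 spans chr2:11380463-11383821 on the plus strand, SOB7 chr1:5832094-5835488 on the minus strand, BEN1 chr2:18703772-18706401 on the minus strand and BAT1 chr4:15440971-15444006 on the plus strand. UGT73C5 (chr2:15423172-15425129) and UGT73C6 (chr2:15420173-15421866) are neighbours on the minus strand, in a tandem cluster with UGT73C1 to UGT73C4. SOB7 overlaps AT1G17065 on the other strand over 1728 bases. The count files list no AT1G17065 and the strand setting of the counting is unknown, so reads of that gene and of SOB7 cannot be told apart in the SOB7 values. UGT73C6 lies wholly inside the antisense long noncoding RNA AT2G36792. The count files give no coordinates, and genes were matched by locus.

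The 250 bases upstream of the annotated start are given for BAS1, SOB7, BEN1 and BAT1, which were measured in every library and whose levels rose or fell in several of the comparisons. They were read from TAIR10.1 and run 5′ to 3′ on the strand of the gene, at chr2:11380213-11380462 for BAS1, chr1:5835489-5835738 for SOB7, chr2:18706402-18706651 for BEN1 and chr4:15440721-15440970 for BAT1. Capitals mark matches, on either strand, to CANNTG (E-box, a form bound by BES1 with partner proteins) and TGTCTC (an auxin response element, printed as its reverse complement where it is on the other strand).
BAS1: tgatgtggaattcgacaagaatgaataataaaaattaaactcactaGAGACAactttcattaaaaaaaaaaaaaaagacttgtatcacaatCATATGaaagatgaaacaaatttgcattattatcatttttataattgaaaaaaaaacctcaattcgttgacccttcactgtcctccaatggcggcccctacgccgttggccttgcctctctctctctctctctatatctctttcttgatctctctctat
SOB7: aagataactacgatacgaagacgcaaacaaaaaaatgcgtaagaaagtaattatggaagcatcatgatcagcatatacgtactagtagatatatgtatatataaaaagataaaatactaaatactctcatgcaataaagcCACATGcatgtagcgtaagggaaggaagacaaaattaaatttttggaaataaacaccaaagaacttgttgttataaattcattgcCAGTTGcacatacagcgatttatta
BEN1: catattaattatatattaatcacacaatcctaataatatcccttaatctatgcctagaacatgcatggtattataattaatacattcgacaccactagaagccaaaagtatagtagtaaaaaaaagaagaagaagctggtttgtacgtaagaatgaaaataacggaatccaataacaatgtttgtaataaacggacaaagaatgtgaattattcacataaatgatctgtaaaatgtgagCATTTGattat
BAT1: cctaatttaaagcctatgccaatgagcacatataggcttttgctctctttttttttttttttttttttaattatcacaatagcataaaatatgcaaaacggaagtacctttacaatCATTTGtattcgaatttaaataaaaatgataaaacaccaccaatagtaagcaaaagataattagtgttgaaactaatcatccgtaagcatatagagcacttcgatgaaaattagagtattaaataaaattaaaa

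Motifs were searched on both strands from 250 bases before to 50 bases after the start of each gene and of 27443 genes in all. BAS1 held an E-box form, CATATG, at position -159 and TGTCTC on the minus strand at -204. SOB7 held the E-box forms CACATG at -110 and CAGTTG at -25, BEN1 held CATTTG at -11, and BAT1 held CATTTG at -134 and TGTCTC on the minus strand at 23, outside the bases printed. UGT73C5 held CATCTG at 28, and UGT73C6 held TGTCTC at -222. CANNTG was present in 61.7% of all these windows and TGTCTC in 14.2%, so neither is rare. The letters CGTGCG and CGTGTG (brassinosteroid response element forms bound by BZR1), CACGTG (G-box, a special case of CANNTG) and TGTCGG (another auxin response element form) were in none of the 6 windows, and in 2.0%, 6.5%, 7.7% and 5.1% of all windows in that order. A match is a description of the letters, and no match says only that they are not in this window.

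**Figure D1:**
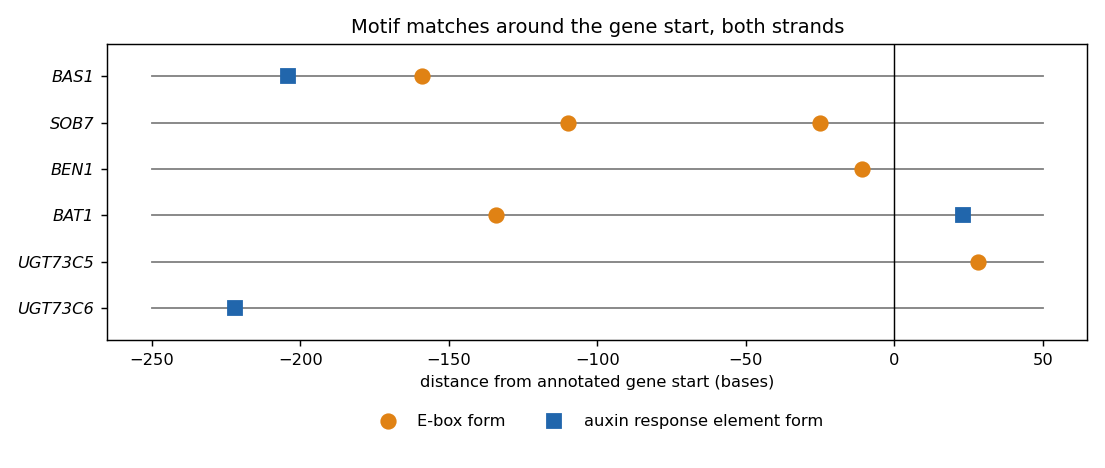
Positions of motif matches from 250 bases before to 50 bases after the annotated start of the 6 genes, both strands; circles are E-box forms and squares an auxin response element form, and the vertical line is the start. E-box forms lie at -159 in BAS1, -110 and -25 in SOB7, -11 in BEN1, -134 in BAT1 and 28 in UGT73C5.

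BAS1, SOB7 and BEN1 rose with BL and with IAA in Col-0, SOB7 and BEN1 far more with IAA than with BL. Without hormone, the 4 readily measured genes were lower in the receptor mutant bri1-116, and BAS1, SOB7 and BAT1 were lower in dwf4. BAT1 was the most abundant of the genes and changed least with the hormones. UGT73C5 had at most 74 counts in a library and was highest with IAA, and UGT73C6 was listed at 0 in every library.

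With a call at an adjusted p of 0.05 in edgeR's quasi-likelihood test, fitted over all genes, BL against mock raised 3 of the 6 genes (BAS1, SOB7, BEN1), beside 13.0% of 20644 genes called, 6.37% higher and 6.59% lower. IAA against mock raised 4 (BAS1, SOB7, BEN1, UGT73C5), beside 59.3% of all genes called, 29.9% higher and 29.3% lower. IAA with BL against mock raised 5 (these and BAT1), beside 52.0% called, 26.0% higher and 26.1% lower. IAA with BL against IAA alone raised 2 (BAS1 and SOB7), beside 10.5% called, 5.40% higher and 5.13% lower. UGT73C6 could be tested in no comparison, and UGT73C5 passed the low-count filter at 101 bp through its IAA libraries, so the counts are descriptions and not support for a shared response. Scaling by library totals raised the share of higher calls among all called genes for IAA with BL against IAA, to 69.0% from 51.3%.

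In the mutants, bri1-116 had 4 of the 6 genes lower than mock Col-0 (BAS1, SOB7, BEN1, BAT1), beside 36.1% of all genes called, 16.7% higher and 19.4% lower. The bri1-116 bzr1-1D roots had 3 higher than bri1-116 (BAS1, BEN1, BAT1), beside 40.3% called, 21.2% higher and 19.1% lower. They had 3 lower than mock Col-0 (BAS1, SOB7, BAT1), beside 16.2% called, 8.03% higher and 8.17% lower. The count against bri1-116 fell to 1 without replicate 1 of bri1-116 bzr1-1D and to 2 without any of the other 3 libraries compared. At 36 bp, where 19558 genes were tested, dwf4 had 3 lower than WT (BAS1, SOB7, BAT1), beside 12.7% called, 4.79% higher and 7.93% lower. Library totals raised the share of higher calls among called genes there to 52.2% from 37.7%. BL raised 4 in dwf4 (BAS1, SOB7, BEN1, BAT1), beside 13.3% called, 7.86% higher and 5.45% lower. BL-treated dwf4 had 2 higher than WT (BAS1, BEN1) and 1 lower (BAT1), beside 18.8% called, 9.63% higher and 9.16% lower.

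**Figure D2:**
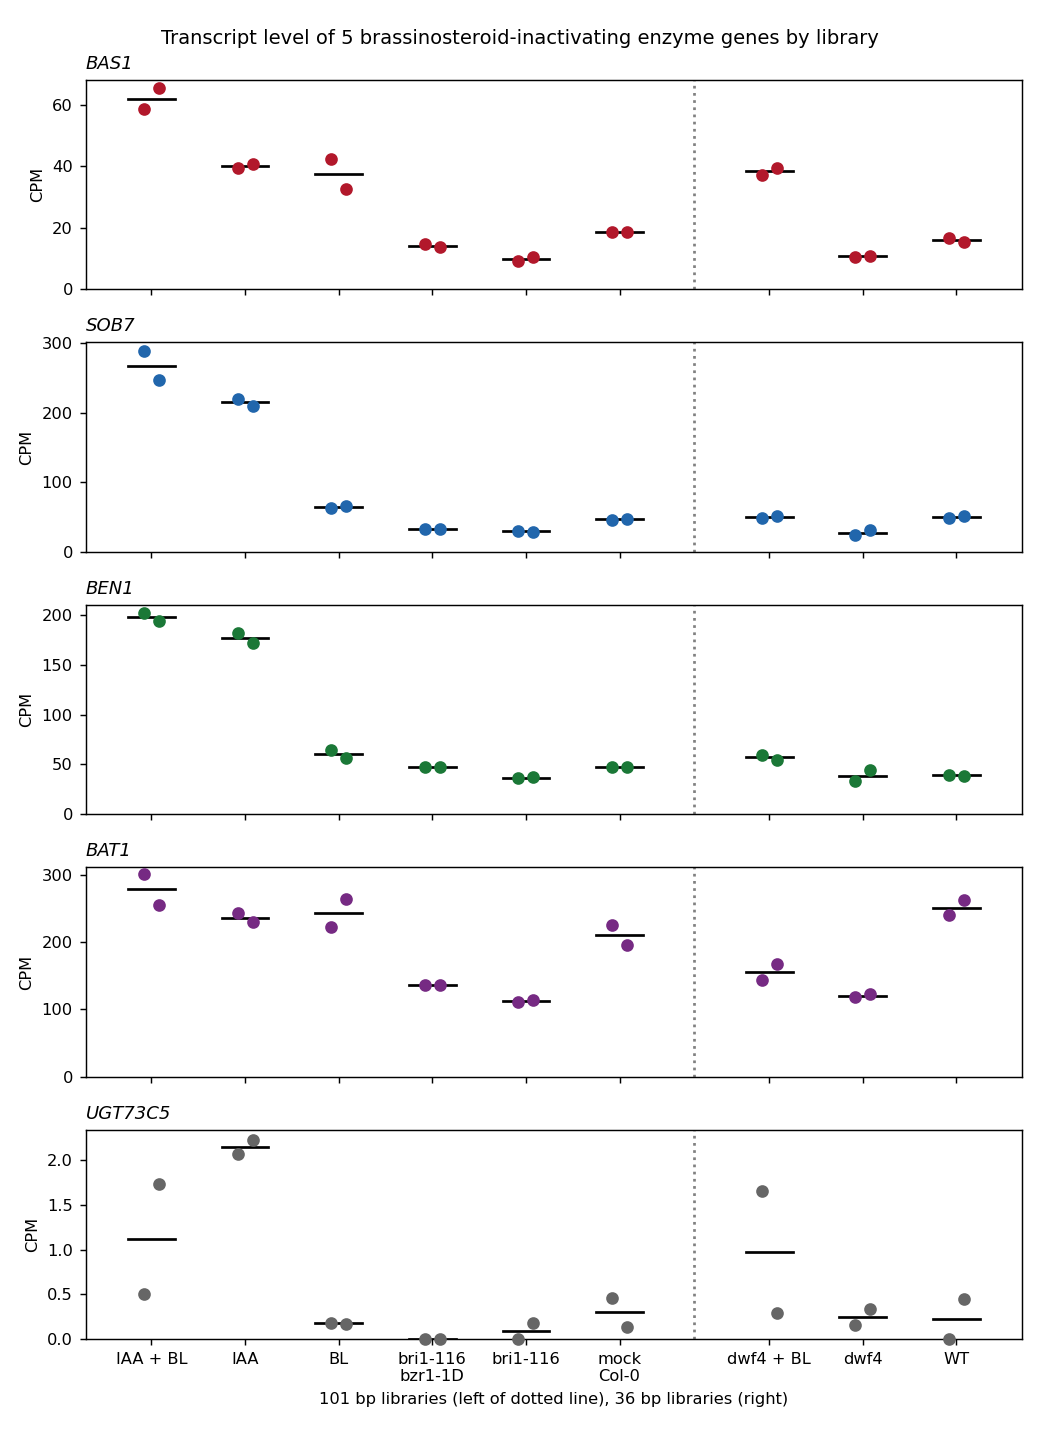
CPM (scaled by TMM-adjusted library size) of 5 genes in each library; dots are libraries, bars are means of 2, and a dotted line parts the 101 bp from the 36 bp libraries, which were scaled apart. BAS1, SOB7 and BEN1 are highest with IAA and BL, at 58.5 to 65.3, 247 to 288 and 195 to 202 CPM, against 18.6 to 18.7, 46.2 to 47.3 and 47.2 to 47.3 CPM in mock Col-0.

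BAS1 encodes a cytochrome P450 that hydroxylates brassinosteroids on the side chain and so inactivates them. It had 58.5 and 65.3 CPM with IAA and BL, 39.5 and 40.8 CPM with IAA, 42.3 and 32.7 CPM with BL, and 18.6 and 18.7 CPM in mock Col-0. Every hormone-treated library lay above both mock libraries, and the libraries with both hormones lay above those with either alone. Against mock, the log2 fold change was 1.72 with both hormones (SE 0.0947, edgeR adjusted p = 1.525e-10), and 1.03 with BL (SE 0.0997, edgeR adjusted p = 5.76e-06). With IAA it was 2.15-fold higher than in mock (SE of the log2 fold change 0.0956, edgeR adjusted p = 4.21e-08). IAA and BL alone were not told apart, at a log2 difference of 0.07 (edgeR adjusted p = 0.543). Adding BL to IAA raised BAS1 by 0.62 on the log2 scale (SE 0.0882, edgeR adjusted p = 0.000193).

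The effect of BL on BAS1 in the presence of IAA, minus its effect without IAA, was -0.41 on the log2 scale (95% interval -0.69 to -0.13), with an edgeR adjusted p of 0.179. None of the 5 genes tested was called for this interaction, beside 1.44% of all genes in edgeR, 0.606% positive and 0.838% negative. DESeq2 also called 0, and 2 of the 5, BAS1 (unadjusted p = 0.00688) and BEN1 (0.0324), had an unadjusted p under 0.05 in edgeR. The estimate for BAS1 was called without replicate 2 of the BL group, at -0.56 (edgeR adjusted p = 0.0155). Among all genes called for the interaction, the share of positive ones was 41.9%, and 58.8% with library totals.

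In untreated mutants BAS1 was lower than in their controls. It had 14.6 and 13.6 CPM in bri1-116 bzr1-1D and 9.17 and 10.3 CPM in bri1-116, against 18.6 and 18.7 CPM in mock Col-0, and these 3 groups did not overlap. In bri1-116 against mock Col-0 the log2 fold change was -0.93 (SE 0.112, edgeR adjusted p = 6.24e-06). BAS1 was higher by 0.53 in bri1-116 bzr1-1D than in bri1-116 (SE 0.135, edgeR adjusted p = 0.00492), but was not called without replicate 1 of bri1-116 bzr1-1D, at 0.44 (edgeR adjusted p = 0.0861). Against mock Col-0, bri1-116 bzr1-1D was at -0.40 (SE 0.124, edgeR adjusted p = 0.0351), a call lost on leaving out either replicate of either group, with adjusted p of 0.0914 and 0.101 without mock replicates 1 and 2 and 0.117 and 0.195 without the mutant's replicates 1 and 2.

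In the dwf4 experiment BAS1 had 37.2 and 39.4 CPM in BL-treated dwf4, 10.4 and 10.9 CPM in dwf4 and 16.6 and 15.2 CPM in WT. BL-treated dwf4 therefore stood above WT and untreated dwf4 below it, with no overlap. Untreated dwf4 against WT had a log2 fold change of -0.58 (SE 0.102, edgeR adjusted p = 0.00888), with an adjusted p of 0.0811 without WT replicate 1 and 0.0512 without WT replicate 2. BL in dwf4 raised BAS1 by 1.85 (SE 0.0954, edgeR adjusted p = 2.74e-05), and BL-treated dwf4 exceeded WT by 1.27 (SE 0.0892, edgeR adjusted p = 0.000105).

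The response of BAS1 to BL was larger in dwf4 than in Col-0 by 0.82 on the log2 scale (SE 0.158, edgeR adjusted p = 0.0175 in a fit of 18 libraries). Of the 6 genes, BAS1 alone was called for this difference, beside 0.937% of 20393 genes called, 0.633% with a positive and 0.304% with a negative difference. The call was lost without mock replicate 2 (0.82, edgeR adjusted p = 0.0778), without dwf4 replicate 1 (0.79, adjusted p = 0.0803) or without replicate 2 of BL-treated dwf4 (0.76, adjusted p = 0.0661). Read length, and a mock control in Col-0 but not in dwf4, differ between the experiments and cannot be told apart from the genotype.

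SOB7 encodes a cytochrome P450 related to BAS1 that also lowers the level of active brassinosteroid. It had 288 and 247 CPM with IAA and BL, 220.1 and 210.0 CPM with IAA, 62.7 and 66.0 CPM with BL, and 46.2 and 47.3 CPM in mock Col-0. The IAA libraries stood well above the BL libraries, which in turn lay above mock. Relative to mock, the log2 fold change was 2.52 with both hormones (SE 0.0706, edgeR adjusted p = 3.217e-14), 2.20 with IAA (SE 0.0700, edgeR adjusted p = 1.30e-13) and 0.46 with BL (SE 0.0734, edgeR adjusted p = 0.000739). IAA exceeded BL by 1.75 on the log2 scale (edgeR adjusted p = 2.49e-12). Adding BL to IAA raised SOB7 by 0.32 (SE 0.0647, edgeR adjusted p = 0.00434), a call lost without IAA replicate 2 (0.28, adjusted p = 0.062) or without replicate 1 of IAA with BL (0.21, adjusted p = 0.054).

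SOB7 had 33.2 and 33.2 CPM in bri1-116 bzr1-1D and 30.0 and 28.3 CPM in bri1-116, against 46.2 and 47.3 CPM in mock Col-0. Both mutants lay below every mock library, with a log2 fold change of -0.49 in bri1-116 bzr1-1D (SE 0.0812, edgeR adjusted p = 0.000542) and -0.68 in bri1-116 (SE 0.0748, edgeR adjusted p = 2.391e-06). Between bri1-116 bzr1-1D and bri1-116 the difference was 0.19 (95% interval 0.01 to 0.37), with an edgeR adjusted p of 0.0852, and it was called when these 4 libraries were fitted alone (0.18, adjusted p = 0.0463). In the dwf4 experiment SOB7 had 48.5 and 51.3 CPM in BL-treated dwf4, 24.1 and 31.0 CPM in dwf4 and 48.3 and 51.7 CPM in WT. BL-treated dwf4 and WT overlapped, and untreated dwf4 lay below both. SOB7 was lower in dwf4 than in WT by a log2 fold change of -0.86 (SE 0.113, edgeR adjusted p = 0.00236), and BL in dwf4 raised it by 0.86 (SE 0.114, edgeR adjusted p = 0.00204). BL-treated dwf4 against WT gave -0.0037 (95% interval -0.25 to 0.24). The BL response of SOB7 in dwf4 minus that in Col-0 was 0.41 (95% interval 0.13 to 0.69, edgeR adjusted p = 0.207), and it was called without dwf4 replicate 2, at 0.60 (adjusted p = 0.0161).

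BEN1 encodes a protein related to dihydroflavonol reductase that lowers brassinosteroid levels when overproduced. It had 202 and 195 CPM with IAA and BL, 182 and 172 CPM with IAA, 64.5 and 56.7 CPM with BL, and 47.2 and 47.3 CPM in mock Col-0. As for SOB7, the IAA libraries lay far above the BL libraries and no hormone-treated library reached down to mock. Against mock, log2 fold changes were 2.07 with both hormones (SE 0.0627, edgeR adjusted p = 8.04e-14), 1.91 with IAA (SE 0.0623, edgeR adjusted p = 1.756e-13) and 0.37 with BL (SE 0.0657, edgeR adjusted p = 0.00157). IAA exceeded BL by 1.54 (edgeR adjusted p = 2.97e-12). Adding BL to IAA changed BEN1 by 0.16 (95% interval 0.04 to 0.29), which was not called (edgeR adjusted p = 0.092) but was called when library totals replaced TMM (0.20, adjusted p = 0.0348).

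BEN1 had 47.6 and 47.1 CPM in bri1-116 bzr1-1D and 36.1 and 37.3 CPM in bri1-116, against 47.2 and 47.3 CPM in mock Col-0. The bri1-116 bzr1-1D libraries overlapped mock, and bri1-116 lay below both. The log2 fold change was -0.36 for bri1-116 against mock Col-0 (SE 0.0655, edgeR adjusted p = 0.000349) and 0.37 for bri1-116 bzr1-1D against bri1-116 (SE 0.0705, edgeR adjusted p = 0.000556). Between bri1-116 bzr1-1D and mock Col-0 it was 0.0027 (95% interval -0.14 to 0.15). In the dwf4 experiment BEN1 had 59.8 and 54.8 CPM in BL-treated dwf4, 33.5 and 44.2 CPM in dwf4 and 39.3 and 38.8 CPM in WT. The dwf4 libraries lay on either side of WT, and BL-treated dwf4 lay above both groups. Untreated dwf4 against WT gave -0.01 (95% interval -0.29 to 0.27). BL in dwf4 raised BEN1 by 0.56 (SE 0.119, edgeR adjusted p = 0.0174), which was not called without replicate 1 of BL-treated dwf4 (0.50, adjusted p = 0.0972) or when these 4 libraries were fitted alone (adjusted p = 0.0509). BL-treated dwf4 exceeded WT by 0.55 (SE 0.118, edgeR adjusted p = 0.014), and the adjusted p was 0.109 and 0.116 without WT replicates 1 and 2 and 0.0856 without replicate 1 of BL-treated dwf4. The BL response of BEN1 in dwf4 minus that in Col-0 was 0.20 (95% interval -0.07 to 0.47).

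**Figure D3:**
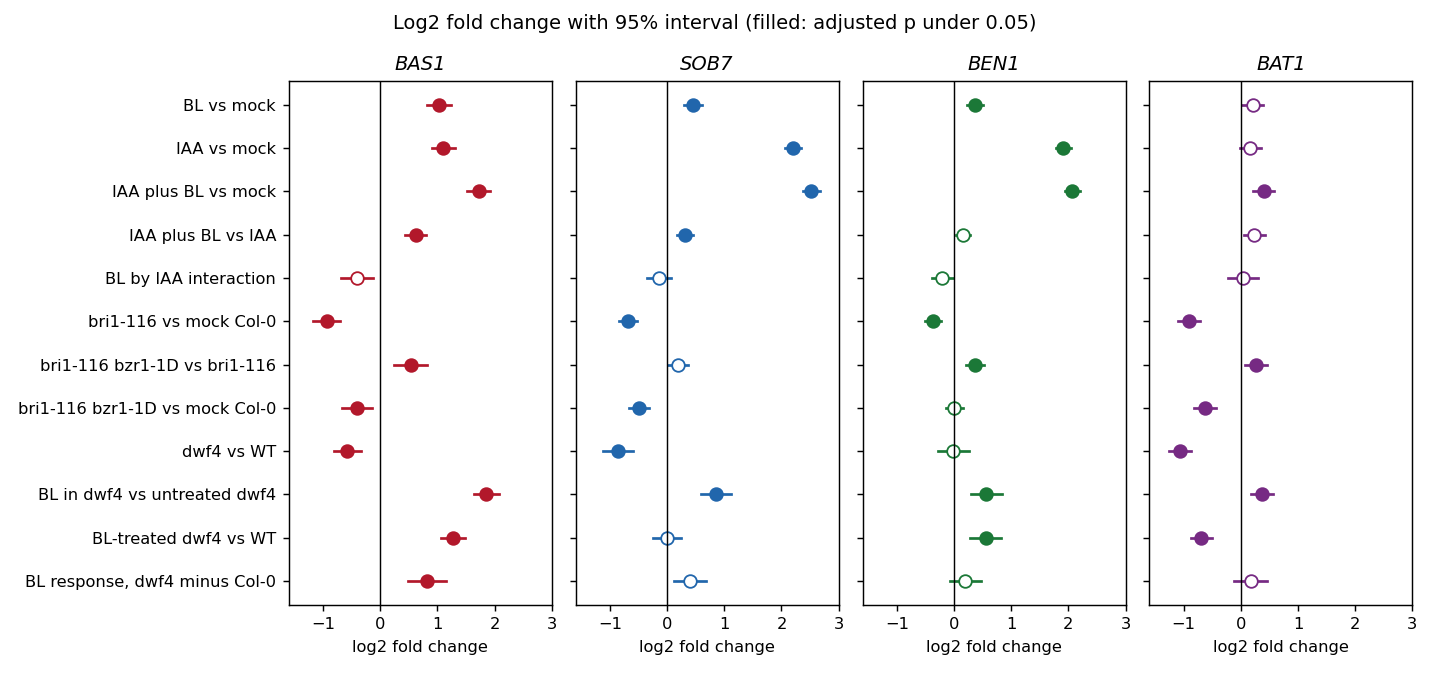
Log2 fold changes of BAS1, SOB7, BEN1 and BAT1 in 12 comparisons, with 95% intervals; filled circles have an edgeR adjusted p under 0.05 and the vertical line marks 0. SOB7 and BEN1 lie at 2.20 and 1.91 with IAA and at 0.46 and 0.37 with BL, while BAS1 lies at 1.03 with BL and close to that with IAA.

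BAT1 encodes an acyltransferase of the BAHD family that converts brassinosteroids to acylated conjugates. It had 301 and 255 CPM with IAA and BL, 243 and 229 CPM with IAA, 222 and 264 CPM with BL, and 226 and 196 CPM in mock Col-0. The BL libraries overlapped mock, the IAA libraries lay just above it, and both libraries with IAA and BL lay above it. Only the combined treatment was called, at 0.40 on the log2 scale (SE 0.0872, edgeR adjusted p = 0.000999). IAA gave 0.16 (95% interval -0.02 to 0.35, edgeR adjusted p = 0.115) and BL 0.20 (95% interval 0.02 to 0.39, edgeR adjusted p = 0.143). These were called on leaving out mock replicate 1 (IAA, 0.265, adjusted p = 0.0351) and replicate 1 of the BL group (BL, 0.34, adjusted p = 0.026). Adding BL to IAA gave 0.24 (95% interval 0.05 to 0.42, edgeR adjusted p = 0.0988), called without replicate 2 of IAA with BL (0.35, adjusted p = 0.0432).

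BAT1 was lower in each mutant than in its control. It had 136 and 135 CPM in bri1-116 bzr1-1D and 110.4 and 115 CPM in bri1-116, against 226 and 196 CPM in mock Col-0, and no libraries of the 3 groups overlapped. The log2 fold change against mock Col-0 was -0.63 in bri1-116 bzr1-1D (SE 0.0906, edgeR adjusted p = 0.00015) and -0.90 in bri1-116 (SE 0.0886, edgeR adjusted p = 7.28e-07). BAT1 was higher by 0.27 in bri1-116 bzr1-1D than in bri1-116 (SE 0.0917, edgeR adjusted p = 0.0269), but the adjusted p was 0.135 and 0.0566 without bri1-116 replicates 1 and 2 and 0.152 and 0.0944 without bri1-116 bzr1-1D replicates 1 and 2. In the dwf4 experiment BAT1 had 143 and 167 CPM in BL-treated dwf4, 118 and 122 CPM in dwf4 and 240.3 and 262 CPM in WT. WT stood above all libraries of dwf4, and BL-treated dwf4 above untreated dwf4. Log2 fold changes were -1.06 for dwf4 against WT (SE 0.0819, edgeR adjusted p = 0.000229) and -0.69 for BL-treated dwf4 against WT (SE 0.0807, edgeR adjusted p = 0.000964). BL in dwf4 raised BAT1 by 0.37 (SE 0.0822, edgeR adjusted p = 0.0211), with an adjusted p of 0.0596 without dwf4 replicate 1, 0.105 without replicate 2 of BL-treated dwf4 and 0.0536 when these 4 libraries were fitted alone. The BL response of BAT1 in dwf4 minus that in Col-0 was 0.17 (95% interval -0.12 to 0.46).

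UGT73C5 and UGT73C6 encode glucosyltransferases that attach glucose to brassinosteroids and, in the case of UGT73C5, also to a fungal toxin. UGT73C5 had 11 and 25 counts with IAA and BL, 74 and 37 counts with IAA, 4 and 2 counts with BL, 0 and 0 in bri1-116 bzr1-1D, 0 and 5 in bri1-116 and 11 and 4 counts in mock Col-0. This corresponds to 0.501 and 1.73 CPM with both hormones, 2.06 and 2.23 CPM with IAA and 0.464 and 0.136 CPM in mock Col-0. The IAA libraries lay above all the others. UGT73C5 passed the low-count filter at 101 bp through its IAA libraries, so its tests with IAA are descriptions and not support for a response. The log2 fold change of IAA against mock was 2.88 (SE 0.524, edgeR adjusted p = 0.000203), and that of IAA with BL against mock was 1.81 (SE 0.645, edgeR adjusted p = 0.0279). The second call was lost without mock replicate 2 (1.12, adjusted p = 0.224), without replicate 2 of IAA with BL (0.81, adjusted p = 0.4) and in a fit of 18 libraries (adjusted p = 0.0684). IAA with BL against IAA alone gave -1.07 (95% interval -2.02 to -0.13, edgeR adjusted p = 0.15), and -2.08 without replicate 2 of IAA with BL (adjusted p = 0.0363). At 36 bp it had 21 and 4 counts in BL-treated dwf4, 2 and 4 in dwf4 and 0 and 7 in WT, too few to pass the filter. The 21 counts, 1.65 CPM, came from replicate 1 of BL-treated dwf4, and its replicate 2 had 0.291 CPM.

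The coding sequences of UGT73C5 and UGT73C6 matched at 1357 of 1485 aligned positions (91.4%). Of the stretches as long as a read within their exons, 99.5% of those of UGT73C5 and 99.4% of those of UGT73C6 occurred once in the genome at 101 bases, and 86.8% and 85.9% at 36 bases, so the files could in part split or drop reads of the pair at 36 bp. For BAS1, SOB7, BEN1 and BAT1 the share was 100.0% at both lengths. UGT73C6 was listed at 0 in all 18 libraries, and so was AT2G36792, which covers it on the other strand over 1694 bases. The strand setting of the counting is not given in the sources used here, and reads that fall in both loci can be counted for neither. Among protein-coding loci that lie wholly inside a listed locus of the other strand, 60 of 284 (21.1%) were at 0 in every library, against 2523 of 26428 others (9.5%). The 0 of UGT73C6 is therefore given as listed, with no limit on its level. The neighbours UGT73C1 to UGT73C4 had at most 19 counts in any library and passed the filter in neither read-length set.

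Per length, BAT1 was the most abundant of the genes in mock Col-0, at 114 ± 11.5 CPM per kb of exon (SD, n = 2), followed by BEN1 at 27.0 ± 0.0535, SOB7 at 23.6 ± 0.381, BAS1 at 8.45 ± 0.0196 and UGT73C5 at 0.153 ± 0.118 CPM per kb. With IAA and BL the levels drew closer, at 151 ± 17.9 for BAT1, 135 ± 14.5 for SOB7, 113 ± 3.01 for BEN1 and 28.0 ± 2.17 CPM per kb for BAS1. In bri1-116 they were 61.1 ± 1.59 for BAT1, 20.9 ± 0.449 for BEN1, 14.7 ± 0.573 for SOB7 and 4.41 ± 0.369 CPM per kb for BAS1. No test between genes was made.

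The order of the 101 bp groups was the same for BAS1 and SOB7, and BEN1 and BAT1 each differed from it by a swap of neighbours. The swapped neighbours were not called different in the gene with the swap, but were in other genes. Mock Col-0 and bri1-116 bzr1-1D, swapped in BEN1, were called different in SOB7 (edgeR adjusted p = 0.000542), BAT1 (0.00015) and BAS1 (0.0351). IAA and BL, swapped in BAT1, were called different in SOB7 (2.49e-12) and BEN1 (2.97e-12). For BAS1 and SOB7 the order ran, from the highest, through IAA with BL, IAA, BL, mock Col-0, bri1-116 bzr1-1D and bri1-116. Neighbours were not called different between IAA and BL for BAS1 and, with 12 libraries fitted, between the mutants for SOB7. For BEN1, IAA with BL and IAA were not told apart (edgeR adjusted p = 0.092), nor were bri1-116 bzr1-1D and mock Col-0 (edgeR adjusted p = 0.986). For BAT1, no neighbours among IAA with BL, BL, IAA and mock Col-0 were called different, and the calls lay between mock Col-0 and the mutants.

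Transcripts of a list of synthesis enzymes were followed in the same comparisons. The list held 10 genes, each tested, among them DWF4, CPD, CYP90D1, ROT3, BR6OX1 and BR6OX2, which are cytochrome P450 enzymes of the later steps. IAA with BL against mock raised 1 and lowered 9, beside 26.0% of all genes higher and 26.1% lower, and IAA against mock raised 1 and lowered 8, beside 29.9% and 29.3%. DET2 was not called in either without mock replicate 1 (edgeR adjusted p = 0.0643 with both hormones and 0.124 with IAA), nor DWF5 with both hormones without replicate 1 of that group (0.0783). The gene that rose was DWF4 in both, by 0.87 with IAA and BL and by 1.39 with IAA, while BR6OX1 fell by 2.26 and 1.93 on the log2 scale. BL against mock lowered 4, beside 6.59% of all genes, with BR6OX2 at -1.37 (SE 0.116), CPD at -0.62 (SE 0.0744) and DWF4 at -0.58 (SE 0.0807). The median log2 fold change of the list was -0.65 with IAA and BL, -0.52 with IAA and -0.11 with BL, beside 0.0042, 0.0018 and -0.0042 over all genes. In bri1-116, 4 were higher than in mock Col-0, beside 16.7% of all genes, led by BR6OX2 at 1.52 (SE 0.0856). Of these 4, CPD and DWF1 were not called without mock replicate 1 (edgeR adjusted p = 0.0723 and 0.113) or without bri1-116 replicate 1 (0.116 and 0.111), nor was DWF1 without bri1-116 replicate 2 (0.113). In dwf4, 3 were higher than in WT, beside 4.79% of all genes, led by BR6OX2 at 1.54 (SE 0.105) and CPD at 0.69 (SE 0.0716). The third, CYP90D1, was not called without WT replicate 1 (adjusted p = 0.148), WT replicate 2 (0.174) or dwf4 replicate 1 (0.0644). BL in dwf4 lowered 5, beside 5.45% of all genes, with BR6OX2 at -3.53 (SE 0.126), CPD at -1.41 (SE 0.0753) and CYP90D1 at -1.23 (SE 0.0840). DWF1 was lost from these without dwf4 replicate 1 (adjusted p = 0.0809) or replicate 1 of BL-treated dwf4 (0.117). In bri1-116 bzr1-1D against bri1-116, 2 were higher and 4 lower, beside 21.2% and 19.1% of all genes, with CYP90D1 at -2.49 (SE 0.167), BR6OX2 at -1.50 (SE 0.0952) and DWF4 at -0.80 (SE 0.0817). Of these 6, DWF5 was not called on leaving out any 1 of the 4 libraries (adjusted p = 0.0504 to 0.177), nor CPD without bri1-116 replicate 1 (0.161) or bri1-116 bzr1-1D replicate 2 (0.282).

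BR6OX2 had 5.90 and 7.12 CPM in BL-treated dwf4, 81.1 and 69.8 CPM in dwf4 and 24.4 and 27.2 CPM in WT. In these same groups BAS1 had the opposite order, highest in BL-treated dwf4 and lowest in untreated dwf4. With IAA, BR6OX2 stayed at 25.7 and 25.5 CPM, against 25.03 and 26.7 CPM in mock Col-0, at a log2 fold change of -0.02 (SE 0.0935), where SOB7 and BEN1 rose the most of the inactivation genes measured in every library. Comparisons with mock Col-0 share its 2 libraries, and those within the dwf4 experiment share libraries too.

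**Figure D4:**
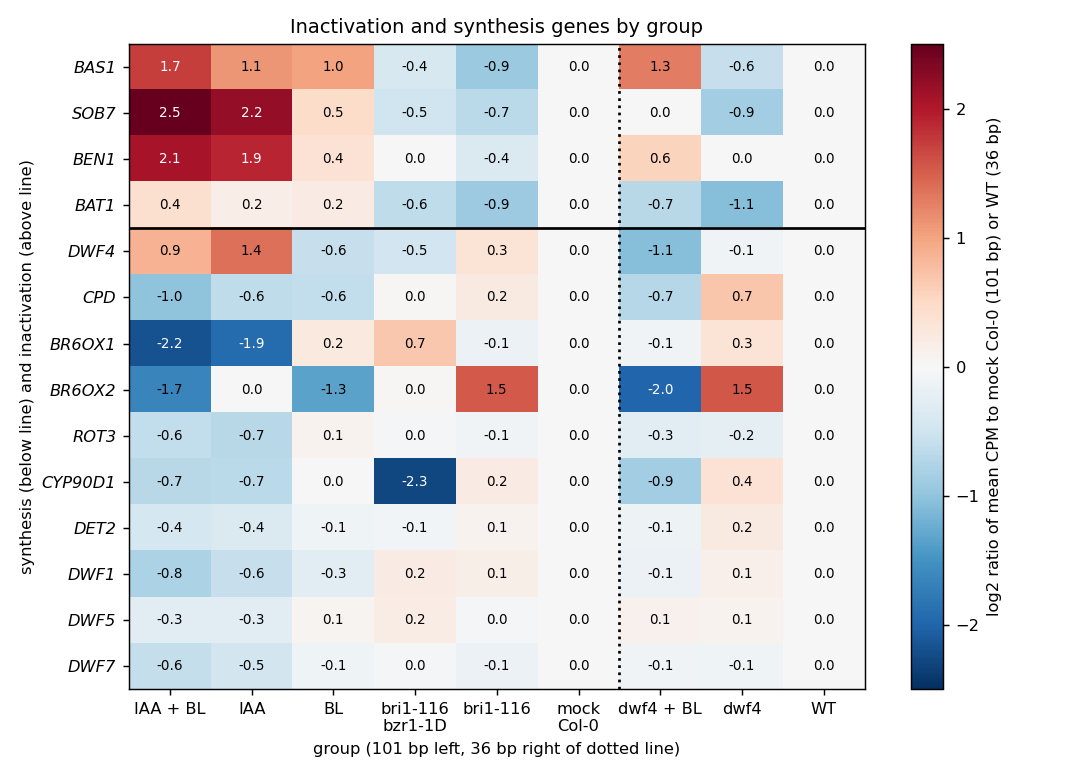
Log2 ratio of mean CPM of each group to mock Col-0 (101 bp, left of the dotted line) or WT (36 bp, right) for 4 inactivation genes above the line and 10 synthesis genes below it; red is higher and blue lower than the control. With IAA and BL the inactivation genes shown lie above the control and the synthesis genes below it except DWF4.

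Cell type markers moved in the same comparisons. The root markers covered the stem cell niche (PLT1, PLT2, WOX5), endodermis and ground tissue (SCR, SHR, CASP1), epidermis and hairs (WER, GL2, COBL9) and root cap (SMB), and every one called is named for the comparisons between mutants, their controls and BL in dwf4. In bri1-116 against mock Col-0, 3 of 10 were higher (PLT2 at 0.68, SCR at 0.37, SHR at 0.18 on the log2 scale) and 2 lower (CASP1 at -1.08, GL2 at -0.31), beside 16.7% and 19.4% of all genes. The endodermal markers differed in direction: CASP1 had 121 and 124 CPM in bri1-116 and 249 and 270 CPM in mock Col-0, while SCR had 87.3 and 91.1 CPM in bri1-116 and 67.6 and 70.0 CPM in mock Col-0. SHR was not called without bri1-116 replicate 1 (edgeR adjusted p = 0.0576) or replicate 2 (0.0751), nor GL2 without bri1-116 replicate 2 (0.0965) or mock replicate 2 (0.262).

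In bri1-116 bzr1-1D against bri1-116, 3 markers were higher (CASP1 at 0.48, GL2 at 0.46, COBL9 at 0.20) and 4 lower (PLT2 at -1.02, PLT1 at -0.75, SCR at -0.34, SHR at -0.26), beside 21.2% and 19.1% of all genes. PLT2 had 9.88 and 10.1 CPM in bri1-116 bzr1-1D and 21.4 and 19.2 CPM in bri1-116. COBL9 was not called on leaving out any 1 of these 4 libraries (adjusted p = 0.0953 to 0.154). Against mock Col-0, bri1-116 bzr1-1D had none higher and 2 lower (PLT1 at -0.71, CASP1 at -0.60), beside 8.03% and 8.17% of all genes. In dwf4 against WT, 2 were higher (PLT2 at 0.54, SCR at 0.33) and 1 lower (CASP1 at -0.61), beside 4.79% and 7.93% of all genes. Neither of the higher ones was called without WT replicate 1 (adjusted p = 0.200 for PLT2 and 0.169 for SCR) or WT replicate 2 (0.253 and 0.0744), nor PLT2 without dwf4 replicate 1 (0.195). With BL in dwf4, 2 were higher (WER at 1.13, CASP1 at 0.32) and 4 lower (PLT2 at -1.44, PLT1 at -0.92, SMB at -0.41, SCR at -0.26), beside 7.86% and 5.45% of all genes. WER had 36.2 and 41.0 CPM in BL-treated dwf4 and 19.1 and 16.1 CPM in dwf4, and PLT2 had 6.29 and 5.16 CPM in BL-treated dwf4 and 17.3 and 13.7 CPM in dwf4. SCR and SMB were not called there on leaving out any 1 of the 4 libraries (adjusted p = 0.0581 to 0.197) or with a replicate block (0.0542 and 0.0721), nor CASP1 without dwf4 replicate 1 (0.0946) or either replicate of BL-treated dwf4 (0.139 and 0.0709). BL-treated dwf4 against WT had 1 higher (WER at 0.91) and 3 lower (PLT2 at -0.90, PLT1 at -0.66, CASP1 at -0.29), beside 9.63% and 9.16% of all genes, and each of the 3 lower ones lost its call on leaving out WT replicate 1 (adjusted p = 0.0697 for PLT2, 0.112 for PLT1 and 0.140 for CASP1).

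With the hormones in Col-0, IAA raised 2 and lowered 6 of the 10 markers, beside 29.9% and 29.3% of all genes, and BL raised 1 and lowered 2, beside 6.37% and 6.59%. COBL9 fell most with IAA, by 1.74 on the log2 scale (SE 0.0747, edgeR adjusted p = 5.602e-12), and PLT2 fell most with BL, by 1.14 (SE 0.185, edgeR adjusted p = 0.000776). The part of cell composition in the levels of the inactivation genes was not tested.

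Other genes were ranked by how closely their pattern over the 9 group means followed each gene. The measure was the root mean square difference of log2(CPM + 1) after centring within each read length, over 7877 genes with a symbol and a mean of at least 2 CPM in both read-length sets. No gene was sought for UGT73C6, which had no variation. Closest to BAS1 were GA2OX6, which inactivates gibberellin (0.26), NCED9, an enzyme of abscisic acid synthesis (0.29), and the aquaporin PIP2E (0.29). SOB7 was closest to the auxin response factor ARF4 (0.23), SETH6 (0.24) and the auxin-induced repressor IAA13 (0.26). BEN1 was closest to another auxin-induced repressor, IAA14 (0.12), then MYB6 (0.12) and BETA-OHASE 1 (0.14). BAT1 was closest to RFNR2 (0.11), ALPHA-VPE (0.13) and the cyclin CYCD1;1 (0.14). BAS1 spanned 2.55 log2 units over the groups, SOB7 3.15, BEN1 2.40 and BAT1 1.35. For UGT73C5, whose counts were low, the closest were MUB4, MLO8 and MSS3 (0.19 each).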

How the data were processed

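RNA-seq counts were analysed for 18 libraries. Per the labels' protocols, total RNA was prepared with a Spectrum kit and libraries with a TruSeq kit. The deposited values are raw whole-number read counts per locus, made by the authors with TopHat 1.4.0, Bowtie and HTSeq on TAIR10, per the submitters' processing notes. The strand setting, filters and annotation release were not given in the sources used here. The 5 closing lines of each file name no gene and stayed out of library sizes and tests. Together they held between 5.87% and 7.25% (101 bp) or 10.9% and 12.0% (36 bp) of all counts in a file. This includes alignments without a unique place, at 3.05% to 4.45% or 8.19% to 9.35% of all counts. Replicates differed by more than counting error (chi-square over its degrees of freedom between 1.83 and 5.75).

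From the deposited counts, contrasts were tested in edgeR 4.0.16 (R 4.3.3, with limma 3.58.1): TMM factors, filterByExpr (minimum count 10, minimum total 15), 1 coefficient per group and the quasi-likelihood F test, two-sided, with Benjamini-Hochberg adjustment over all genes tested. Read lengths coincide with experiments, so each set (12 and 6 libraries) was scaled and fitted by itself, and the common biological coefficient of variation was 0.0483 at 101 bp and 0.0723 at 36 bp. A fit of 18 libraries (0.0557) served the difference between BL responses. Adjusted p in the report are from edgeR unless another tool is named. The script was tested on simulated data. The 6 genes and the other lists were chosen with earlier results of these data known. The 6 genes are named in every comparison, and the 3 genes most like each of them except UGT73C6 are named too. Of each other list but the root markers, fold changes are given for at most 4 called genes per comparison, chosen chiefly by size of change. Further called genes are named where their call was lost under an alternative. Like genes needed a mean of at least 2 CPM in both sets. Alternatives were RLE factors, library totals, no filter, a replicate block, the compared libraries alone, all 18 libraries, leaving out each library, and DESeq2 1.42.0. Sequences and positions are from RefSeq on TAIR10.1, and only locus identifiers tie them to the files.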

Additional observations from a re-analysis of the deposited data

Results flagged for a closer look

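The response of BAS1 to BL was larger in dwf4 than in Col-0 by 0.82 on the log2 scale. For 3 synthesis genes the response was more negative in dwf4, by edgeR's quasi-likelihood test of the difference itself. The differences were -2.16 for BR6OX2 (SE 0.199, edgeR adjusted p = 3.346e-05), -1.21 for CYP90D1 (SE 0.172, edgeR adjusted p = 0.00174) and -0.79 for CPD (SE 0.109, edgeR adjusted p = 0.00153). BR6OX2 is an enzyme that makes brassinolide, and CYP90D1 and CPD act earlier in synthesis. BR6OX2 had 5.90 and 7.12 CPM in BL-treated dwf4 and 81.1 and 69.8 CPM in dwf4, beside 9.14 and 11.4 CPM with BL and 25.03 and 26.7 CPM with mock in Col-0. CYP90D1 fell with BL in dwf4 but not in Col-0, where it had 27.3 and 35.8 CPM with BL and 29.5 and 33.0 CPM with mock. Of these differences, those of BR6OX2, CYP90D1 and CPD were called without each library in turn, and that of BAS1 was not. Read length and the presence of a mock control differ between the experiments, and their part was not tested.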

How the results depend on the processing

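Leaving out 1 library at a time gave, for genes called, 1150 to 2350 for BL against mock (2675 with every library), 1099 to 1529 for IAA with BL against IAA (2174), 141 to 348 for the interaction (298), 1609 to 2242 for bri1-116 bzr1-1D against mock Col-0 (3343), 575 to 2359 for dwf4 against WT (2487), 1323 to 2927 for BL in dwf4 (2602), 1034 to 2327 for BL-treated dwf4 against WT (3674) and 70 to 629 for the difference between BL responses (191). The number of the 6 genes called ran from 1 to 4 for IAA with BL against IAA, 0 to 1 for the interaction, 1 to 2 for bri1-116 bzr1-1D against bri1-116 and 0 to 2 for the difference between BL responses. Fitting the compared libraries alone called 1577 genes for BL against mock, 1560 genes and 2 of the 6 for BL in dwf4, and 43 genes and 0 of the 6 for the difference (BAS1 0.82, edgeR adjusted p = 0.135). DESeq2 called 1701 genes for BL against mock, 2222 for bri1-116 bzr1-1D against mock Col-0, 1617 for dwf4 against WT, 1668 for BL in dwf4 and 2345 for BL-treated dwf4 against WT. A fit of 18 libraries called 185 genes for the interaction, 3781 for dwf4 against WT and 3988 for BL in dwf4. Without a low-count filter, 860 genes and 1 of the 6 were called for the interaction, 842 genes and 2 of the 6 for the difference, and 4 of the 6 for IAA with BL against IAA, as with library totals (4).

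Signs turned only for values near 0 or for UGT73C5. BEN1 in bri1-116 bzr1-1D against mock Col-0 was -0.0129 with library totals, -0.0017 without a filter, -0.0035 with these libraries alone and -0.0158 to 0.0083 on leaving out a library. BEN1 in dwf4 against WT was 0.0404 with library totals and -0.22 to 0.17 on leaving out a library. SOB7 in BL-treated dwf4 against WT was 0.0023 with RLE factors, 0.0280 with library totals, 0.0000 with these libraries alone, 0.0026 with DESeq2 and -0.0515 to 0.0464 on leaving out a library. On leaving out a library, BAT1 ran from -0.11 to 0.16 for the interaction, and UGT73C5 from -1.35 to 0.37 for BL against mock, from -1.43 to 0.37 for the interaction and from -4.92 to 0 for bri1-116 bzr1-1D against bri1-116. The cause was not tested. With TMM, RLE factors and library totals, the median log2 fold change of all genes tested lay within 0.063 of 0.

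The labels do not say that equal replicate numbers belong together, and deviations of equally numbered libraries correlated at -0.178 to 0.085. A replicate block changed no call of the 6 genes and gave 2476 genes for BL against mock and 11960 for IAA against mock. With 2 libraries per group, a lone library in a group is assumed to vary like the others. UGT73C5 and UGT73C6 are limited by counts.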

Other observations

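Of 3 other enzymes reported to modify brassinosteroids, SOT12 was called in 3 comparisons, and ST4A and BIA1 were each called in 2. Each of the calls of ST4A and BIA1 was lost under some alternative. SOT12, a sulfotransferase, had 23.9 and 27.4 CPM with IAA and BL, 40.9 and 35.6 CPM with IAA, 17.0 and 19.1 CPM with BL and 27.1 and 25.6 CPM in mock Col-0. It rose with IAA by 0.55 on the log2 scale (SE 0.0822, edgeR adjusted p = 2.102e-05), fell with BL by 0.56 (SE 0.0957, edgeR adjusted p = 0.00107), and fell by 0.60 when BL was added to IAA (SE 0.0867, edgeR adjusted p = 0.000228). BAS1 and SOB7 were higher in that last comparison. BIA1 at -0.32 in bri1-116 against mock Col-0 (edgeR adjusted p = 0.0476) was not called with a replicate block (0.0566), library totals (0.0517) or DESeq2 (0.126). ST4A, another sulfotransferase, at -0.95 in dwf4 against WT (edgeR adjusted p = 0.0498) was not called with a replicate block (0.0757), library totals (0.0568) or DESeq2 (0.198). With IAA it was at -0.52 (edgeR adjusted p = 0.00637) and was not called in DESeq2 (0.0813) or without IAA replicate 1 (0.105). The acyltransferase BIA1 was at -0.51 in bri1-116 bzr1-1D against mock Col-0 (edgeR adjusted p = 0.0208), and not called without mock replicate 1 (-0.47, adjusted p = 0.0922) or without replicate 1 of bri1-116 bzr1-1D (-0.38, adjusted p = 0.242).

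LOB, a boundary gene reported to activate BAS1, was counted at 6 and 6 in bri1-116 bzr1-1D, 28 and 23 in bri1-116 and 6 and 5 in mock Col-0, and at 31 and 29 in BL-treated dwf4, 17 and 15 in dwf4 and 2 and 0 in WT. Its log2 fold change in bri1-116 against mock Col-0 was 2.15 (SE 0.409, edgeR adjusted p = 0.000588), where BAS1 was at -0.93. In Col-0 the mean of LOB was 0.230 CPM with IAA and BL, 0.118 CPM with IAA, 0.553 CPM with BL and 0.211 CPM with mock. LOB was not called with BL, and BAS1 rose in each of these treatments. ATAF2, reported to repress BAS1 and SOB7, had 73.6 and 72.9 CPM in bri1-116 bzr1-1D, 114 and 111 CPM in bri1-116 and 86.9 and 97.5 CPM in mock Col-0. ATAF2 was lower in bri1-116 bzr1-1D than in bri1-116 by a log2 fold change of -0.62 (SE 0.0827, edgeR adjusted p = 1.703e-05). BAS1 was higher there. In bri1-116 against mock Col-0, where BAS1 and SOB7 were lower, ATAF2 was at 0.29 (edgeR adjusted p = 0.00735). It was at 0.23, and not called, without mock replicate 1. It rose with IAA by 0.49 (SE 0.0776, edgeR adjusted p = 3.88e-05), where BAS1 and SOB7 rose too. The same held with IAA and BL, at 0.30 (edgeR adjusted p = 0.00426). That call of ATAF2 was lost without mock replicate 1 (0.23) or without replicate 2 of IAA with BL (0.22). In bri1-116 bzr1-1D against mock Col-0 ATAF2 was at -0.33 (edgeR adjusted p = 0.0118), where BAS1 and SOB7 were also lower. That call was lost without mock replicate 2 (-0.26) and without replicate 1 (-0.35) or replicate 2 (-0.33) of bri1-116 bzr1-1D.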
